A study of Homo sapiens with 12 samples.

Results

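Chromatin immunoprecipitation and sequencing for hnRNPK was carried out in the established colorectal cancer line HCT116, and the peaks described here were those that the deposited lists placed outside chromosomes 1 to 22, X, Y and the mitochondrial chromosome. The members were chosen by the sequence name alone, and 552 of 16768 peaks in 6 lists qualified. All cells overexpressed hnRNPK from a plasmid. They carried in addition the CRLM1 construct (CRLM1-OE), the vector without insert (empty control) or the antisense control, whose construct the labels do not describe further. Each group held 2 immunoprecipitated libraries, labelled as replicates 1 and 2, and each IP was set against its own input when the authors called peaks. All libraries came from this single line, so they describe a cultured tumour line and not a tissue. Nothing in the lists gives the read depth of a library, so a peak number cannot be separated from the depth behind it. CRLM1-OE replicate 1 and empty control replicate 2 stood apart from the other 4 lists. Their median peak widths on chromosomes were 506 and 516 bp against 662 to 747 bp in the others, and they held 398 of the 552 contig peaks, so values are given per list throughout.

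hnRNPK is a nuclear protein with KH domains that bind single-stranded DNA and RNA rich in cytosine, and it takes part in transcription, splicing and RNA stability. A human genome assembly holds, beside its chromosomes, sequences that could not be ordered, here called contigs. Unlocalized contigs are assigned to a chromosome without a position, unplaced contigs are assigned to none, alternate sequences are other versions of regions already on a chromosome, and a patch is a later correction. Unlocalized and unplaced contigs are rich in satellite DNA, which consists of tandem arrays found mainly in the heterochromatin around centromeres and on the short arms of acrocentric chromosomes. Human satellites II and III are built on the unit ATTCC, alpha satellite is the DNA of centromeres, and beta satellite lies next to it on several chromosomes. Some contigs also hold ribosomal DNA, the array of genes that RNA polymerase I transcribes into the 45S precursor of the 18S, 5.8S and 28S ribosomal RNAs.

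The sequences under the contig peaks were mostly tandem repeats. The following stretches of hg38, all on the plus strand, stand for repeat types that carried the peaks, with alpha satellite left out. The first 5 come from the only contig regions that had a peak in all 6 lists, and each is the stretch with the most capitals inside the longest run of bases covered by all of them. The last 2 come from the highest-scoring peak of their repeat type on the contig named. In the 5-base repeats capitals mark ATTCC or its reverse complement GGAAT. In the ribosomal spacer they mark CTCT. In the 68-, 48- and 42-base repeats they mark a base identical to the one exactly 68, 48 or 42 positions before it.

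KI270729.1, chr17_KI270729v1_random:24624-24723, 5-base repeat: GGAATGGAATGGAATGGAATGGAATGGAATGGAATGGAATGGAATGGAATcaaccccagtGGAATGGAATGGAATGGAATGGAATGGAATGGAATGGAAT
KI270736.1, chr22_KI270736v1_random:175069-175168, 5-base repeat: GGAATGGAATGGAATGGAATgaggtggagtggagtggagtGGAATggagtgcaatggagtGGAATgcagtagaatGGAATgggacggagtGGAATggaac
GL000216.2, chrUn_GL000216v2:149568-149703, 68-base repeat: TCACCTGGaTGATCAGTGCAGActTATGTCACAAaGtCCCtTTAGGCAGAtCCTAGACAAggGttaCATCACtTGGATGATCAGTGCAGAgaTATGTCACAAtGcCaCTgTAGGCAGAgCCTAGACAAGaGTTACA
GL000225.1, chr14_GL000225v1_random:117692-117827, 68-base repeat: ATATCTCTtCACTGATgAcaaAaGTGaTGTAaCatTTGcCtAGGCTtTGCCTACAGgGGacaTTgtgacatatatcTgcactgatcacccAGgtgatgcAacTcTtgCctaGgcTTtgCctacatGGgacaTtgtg
KI270733.1, chr22_KI270733v1_random:136349-136448, ribosomal spacer: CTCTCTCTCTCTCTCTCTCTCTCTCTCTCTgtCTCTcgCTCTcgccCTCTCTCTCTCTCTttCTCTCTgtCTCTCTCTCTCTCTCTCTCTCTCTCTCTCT
GL000205.2, chr17_GL000205v2_random:25217-25312, 48-base repeat: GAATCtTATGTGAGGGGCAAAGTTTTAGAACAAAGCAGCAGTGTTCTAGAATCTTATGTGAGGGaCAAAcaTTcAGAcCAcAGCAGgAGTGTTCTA
KI270333.1, chrUn_KI270333v1:1608-1691, 42-base repeat: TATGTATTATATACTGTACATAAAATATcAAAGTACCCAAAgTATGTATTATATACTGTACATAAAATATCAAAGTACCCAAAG

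The ATTCC stretches shown differed in regularity. Of the 100 bases shown, 90 belonged to the ATTCC unit on KI270729.1 and 40 on KI270736.1. Of the bases shown, 115 matched the base exactly 68 positions before on GL000216.2, and 61 did so on the equally long stretch of GL000225.1. The later unit of the GL000225.1 stretch lies slightly more than 68 bases from the earlier one, so its 61 does not measure regularity. Over all peaks on the 68-base repeat, neighbouring spacings were allowed. The median identity was then 58.1% in 17 peaks of GL000216.2 and 55.6% in 70 peaks of GL000225.1. The short contig KI270333.1 matched at 82 of 84 bases.

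The first question was how many peaks each list placed on contigs. The lists of CRLM1-OE held 156 and 50 contig peaks, those of the empty control 28 and 242, and those of the antisense control 43 and 33. Replicates of the empty control therefore enclosed all other lists, the lowest and the highest number both being empty control. As a share of all peaks of a list, contig peaks made up 3.47% of 4496 in CRLM1-OE replicate 1 (95% Wilson interval 2.97 to 4.05%) and 1.56% of 3213 in replicate 2 (1.18 to 2.05%). They made up 1.70% of 1647 in empty control replicate 1 (1.18 to 2.45%) and 8.49% of 2849 in replicate 2 (7.53 to 9.57%). In the antisense control the shares were 1.86% of 2306 (1.39 to 2.502%) and 1.46% of 2257 (1.04 to 2.05%). These intervals cover counting error only. In 4 lists the share lay between 1.46 and 1.86%, and the intervals of CRLM1-OE replicate 1 and of empty control replicate 2 lay above all of theirs.

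**Figure D1:**
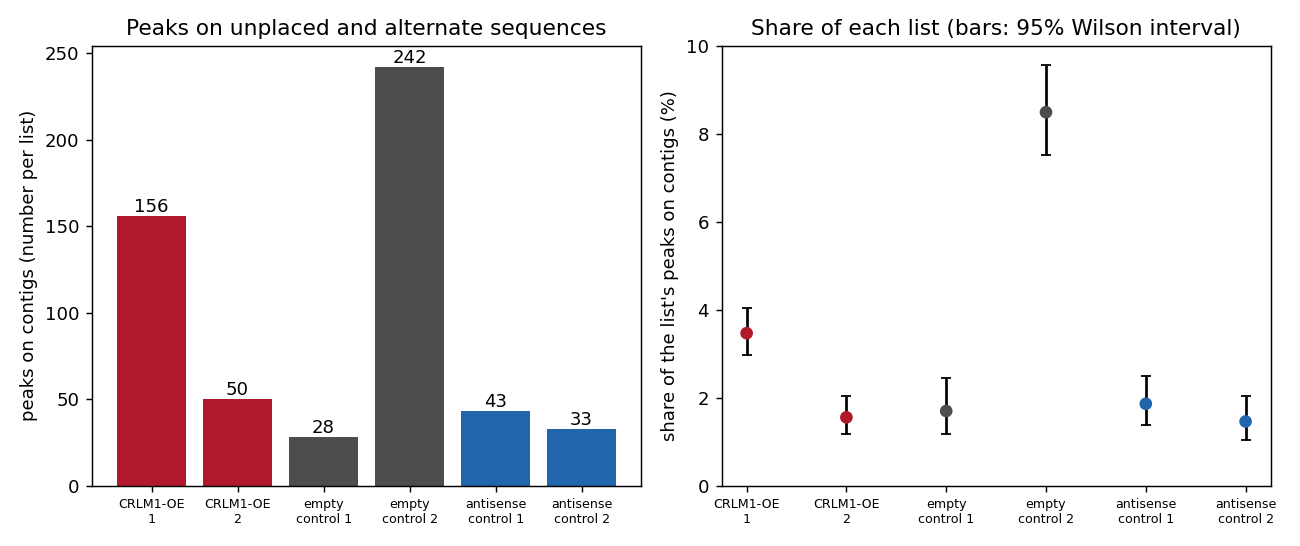
Peaks on contigs in each of the 6 lists, as a number (left, bars) and as a percentage of all peaks of the list (right, points with 95% Wilson intervals); red is CRLM1-OE, grey empty control and blue antisense control. Empty control replicate 2 stands highest with 242 peaks and 8.49%, and its sister list lowest in number with 28.

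No contrast between the groups passed a test, and with 2 lists a group none could, since the smallest two-sided p of the exact permutation test was 0.333. The number of contig peaks was 2.34-fold higher in CRLM1-OE than in the antisense control as a ratio of geometric means (log2 difference 1.23, exact permutation p = 0.333), and these lists did not overlap. Against the empty control the ratio was 1.07 (exact permutation p = 1). The antisense control held 0.458 times the number of the empty control (exact permutation p = 1). Shares averaged 1.66% ± 0.285 (SD, n = 2) in the antisense control, 2.51% ± 1.35 in CRLM1-OE and 5.10% ± 4.80 in the empty control. The difference of CRLM1-OE from the empty control, -2.58 percentage points, was smaller than the SD of 4.80 between the empty control lists. Against all 4 control lists the number was 1.59-fold higher (exact permutation p = 0.667, smallest possible 0.133). Without CRLM1-OE replicate 1 the number lay under that of the 4 control lists (log2 difference -0.16), and the difference in share from the antisense control was -0.107 percentage points. Without empty control replicate 2 the share of CRLM1-OE lay 0.813 percentage points above the empty control.

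Contig peaks took a larger part of the strong peaks of every list, and the excess of empty control replicate 2 was present among them. Among the 100 highest-scoring peaks of each list, 55 lay on contigs in that list and 38 in CRLM1-OE replicate 1, against 7 in CRLM1-OE replicate 2, 7 in empty control replicate 1, 9 in antisense control replicate 1 and 9 in antisense control replicate 2. Among the highest 1000 the numbers were 192 and 110 against 34, 21, 30 and 25. With the list length made equal in this way, both lists still stood above the other 4. The peaks covered 251 kb of contig sequence in empty control replicate 2, 155 kb in CRLM1-OE replicate 1 and 28.1 to 65.8 kb in the others. This list was singled out with its peak number known, so the excess is a description and was not tested.

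Contig peaks were concentrated on unlocalized and unplaced sequences and nearly absent from alternates. Over the 6 lists together, 313 peaks fell on 15 of 42 unlocalized contigs and 221 on 25 of 127 unplaced contigs. Only 11 fell on 8 of 261 alternate sequences, and 7 fell on the patch KN196487.1, whose sequence was not used here. Per megabase of determined sequence this was 47.1 peaks on unlocalized (exact Poisson interval 42.04 to 52.63), 51.1 on unplaced (44.5 to 58.3) and 0.109 on alternate sequences (0.0545 to 0.195), against 5.52 on chromosomes (5.44 to 5.61). Peaks of different lists at the same place were counted each time. These intervals treat them as independent and do not measure the spread between lists. Per list, the density on unlocalized and unplaced sequence together ran from 2.46 per megabase in empty control replicate 1 to 21.5 in empty control replicate 2. Alternates repeat regions of a chromosome, and how reads with several equal matches were treated is not given. The low density on alternates therefore describes the calls and cannot be read as less binding. The density on all contigs together thus mixed classes that differed in opposite directions from the chromosomes. With the 100.7 Mb of alternates included, it was 0.656-fold that of chromosomes (log2 difference -0.61 ± 1.02 SD, n = 6 lists, lower in 5 of 6), which did not pass the exact sign-flip permutation test (p = 0.188, adjusted over the 5 measures compared 0.188). Without alternates and the patch the density was 6.50-fold that of chromosomes (log2 difference 2.70 ± 1.04, higher in 6 of 6 lists, exact permutation p = 0.0312, the smallest that 6 lists can give).

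That fold was 9.26 in CRLM1-OE replicate 1 and 4.15 in replicate 2. It was 4.47 in empty control replicate 1 and 24.2 in replicate 2, and 4.85 and 3.73 in the antisense control. In each list, then, unlocalized and unplaced sequence carried several times the peak density of chromosomes, and 4 lists lay between 3.73 and 4.85. Peaks covered 2.24% of unlocalized and unplaced bases in empty control replicate 2 and 1.37% in CRLM1-OE replicate 1, against 0.0509% and 0.0834% of the chromosomes in these lists. In the other 4 lists, coverage of these contigs ranged from 0.250 to 0.594% and chromosome coverage from 0.0439 to 0.0969%.

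The same few contigs recurred. Of 49 contigs with a peak in any list, 6 had peaks in all 6 lists, 3 in 5 lists, 4 in 4, 8 in 3, 10 in 2 and 18 in a single list. The 6 contigs common to all lists were GL000225.1 with 128 peaks, KI270442.1 with 62, GL000216.2 with 56, KI270736.1 with 39, KI270729.1 with 27 and KI270733.1 with 27. They carried 61.4% of the contig peaks on 12.6% of the unlocalized and unplaced bases.

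**Figure D2:**
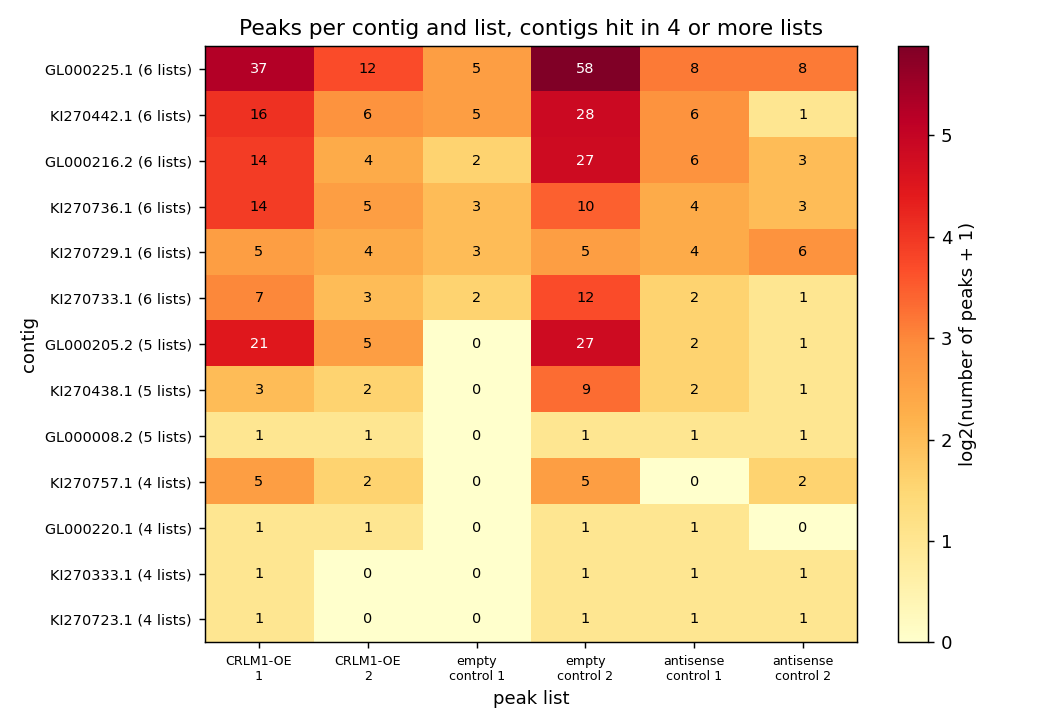
Number of peaks on each of the 13 contigs hit in 4 or more lists (rows) in each list (columns); the colour is log2 of the number plus 1 and the cells give the number itself. GL000225.1 has the highest number of every column, 5 to 58 peaks (level with KI270442.1 at 5 in empty control replicate 1), GL000205.2 has 0 in empty control replicate 1 and 27 in replicate 2, and KI270729.1 has 3 to 6 in every list.

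GL000225.1, an unlocalized contig of chromosome 14 and 211 kb long, held the most peaks of any contig in every list, level with KI270442.1 in empty control replicate 1. It carried 37 and 12 peaks in CRLM1-OE, 5 and 58 in the empty control, and 8 and 8 in the antisense control. These were 17.9 to 24.2% of the contig peaks of a list, so its part was similar in lists of very different length. Its 128 peaks formed 57 merged regions that covered 23.2% of the contig. Of these peaks, 70 lay on the 68-base repeat and 57 on sequence with no period that was scored, and their mean GC content was 54.7% against 47.7% for the whole contig.

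In 4 of the 6 lists the highest-scoring contig peak lay on a 5-base repeat, on KI270438.1, KI270729.1 or KI270736.1. KI270736.1, unlocalized on chromosome 22, had 14 and 5 peaks in CRLM1-OE, 3 and 10 in the empty control and 4 and 3 in the antisense control. KI270729.1, unlocalized on chromosome 17, had 5 and 4, 3 and 5, and 4 and 6 peaks in the same order, so its number was highest in antisense control replicate 2 and changed little between lists. KI270442.1, an unplaced contig, had 16 and 6, 5 and 28, and 6 and 1 peaks, of which 41 lay on the 5-base repeat and 18 on the repeat of alpha satellite. GL000216.2, also unplaced, had 14 and 4, 2 and 27, and 6 and 3 peaks, of which 36 lay on the 5-base and 17 on the 68-base repeat.

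A further 3 contigs had peaks in every list but empty control replicate 1. GL000205.2, unlocalized on chromosome 17, had 21 and 5 peaks in CRLM1-OE, 0 and 27 in the empty control and 2 and 1 in the antisense control. Its peaks were wide, with a median of 1389 bp, and 29 of 56 lay on the 48-base repeat shown above. The broadest contig peak of any list, at 15619 bp, was a call on this contig in empty control replicate 2. KI270438.1 had 3 and 2, 0 and 9, and 2 and 1 peaks. GL000008.2, unlocalized on chromosome 4, had 1 peak in each of the 5 lists, always at its start, and the width varied only from 4338 to 4450 bp.

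A number of calls began at the edge of a contig. In all, 18 contig peaks on 7 contigs started within 10 bases of the first base, and 3 of these contigs were touched at their start in 2 or more lists. No chromosome peak (0 of 16214) did so, but the chromosome sequences of hg38 begin with undetermined bases, so none could. KI270333.1, an unplaced contig of 2699 bases made of the 42-base repeat, was covered from its start to base 1765 to 2019 in CRLM1-OE replicate 1, empty control replicate 2 and both antisense control lists. Its score was 504 in antisense control replicate 1, where it ranked 3, and 116 to 324 in the other 3 lists. Where a call runs to the end of a contig, the length of the region beyond it cannot be read from the list.

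The second question was where single regions were called repeatedly. Contig peaks that overlapped by 1 bp or more were merged over the lists into 267 regions, of which 121 (45.3%, 95% Wilson interval 39.5 to 51.3%) held peaks of 2 or more lists. Among all 15732 merged regions of the series this share was 3.65%, and among the 15464 on chromosomes it was 2.92% (452 regions). In all 6 lists there were 5 contig regions, where 0.102% of all regions were found in 6 lists. Of the other contig regions 13 were in 5 lists, 13 in 4, 28 in 3, 62 in 2 and 146 in 1. Without empty control replicate 2, 66 contig regions (38.6% of those left) were in 2 or more lists, against 2.49% of chromosome regions.

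Counted per peak and per list, 86.5% of the contig peaks of CRLM1-OE replicate 1 and 94.0% of replicate 2 overlapped a peak of another list. The values were 92.9% in empty control replicate 1, 52.5% in replicate 2, and 93.0 and 93.9% in the antisense control. Chromosome peaks of the same lists overlapped in 5.44 to 9.55%. The difference averaged 78.2 percentage points (SD 17.6, n = 6, higher in 6 of 6 lists, exact sign-flip permutation p = 0.0312, adjusted 0.0391). An overlap counts in both lists that share it, so the 6 values are not independent of each other. Peaks also covered far more of these contigs than of chromosomes, with 23.2% of GL000225.1 and 29.2% of GL000205.2 under merged peaks. Overlap by coincidence is therefore more frequent on contigs, and its part was not tested. Empty control replicate 2 differed from the other 5 lists here as well, since 115 of its 228 contig regions were found in no other list, against 2 to 21 regions in each of the others.

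One of the 5 regions in all 6 lists lay on GL000216.2 (chrUn_GL000216v2:149337-149928, the 68-base repeat). Its score, the peak caller's own value, was 116 and 121 in CRLM1-OE, 89.6 and 346 in the empty control, and 63.9 and 78.6 in the antisense control. The region of KI270736.1 (chr22_KI270736v1_random:170733-175803, the 5-base repeat) had top scores of 409 and 141, 85.8 and 1447, and 73.7 and 106. It was the first-ranked peak of all in empty control replicate 2, and ranked 16 in CRLM1-OE replicate 1.

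The region of KI270733.1 (chr22_KI270733v1_random:136027-136661, ribosomal spacer) scored 182 and 127, 120 and 189, and 60.6 and 75.1. The region of GL000225.1 (chr14_GL000225v1_random:116555-118062, the 68-base repeat) scored 167 and 64.4, 64.3 and 131, and 50.2 and 72.7. That of KI270729.1 (chr17_KI270729v1_random:24438-25643, the 5-base repeat) scored 190 and 61.5, 53.9 and 189, and 61.5 and 125. The scores of different lists are given side by side only, since neither their scale nor the depth behind them is known.

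Of the 13 regions called in 5 lists, the pair with the best mean rank share, 0.491 and 3.12% of a list, is given here, and the others reached 42.8%. The start of KI270729.1 (chr17_KI270729v1_random:10-6395) scored 587 and 270 in CRLM1-OE, 1381 in empty control replicate 2, and 139 and 117 in the antisense control, and was absent from empty control replicate 1. It ranked between 2 and 25 in each of these 5 lists. A region of KI270438.1 (chrUn_KI270438v1:100469-102574) scored 254 and 161, then 410 in empty control replicate 2, and 74.6 and 103. Both lay on the 5-base repeat. The highest contig score of CRLM1-OE replicate 1, at 1050, was another peak of KI270438.1, which ranked first in its list.

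A GC-rich region was found on KI270723.1, an unlocalized contig of chromosome 14. It held 1 peak in each of CRLM1-OE replicate 1 (score 283), empty control replicate 2 (317), antisense control replicate 1 (79.3) and antisense control replicate 2 (65.7). The mean GC content of these peaks was 70.5%, against 45.4% for the contig, and no period was found in them. Unlike the regions whose scores are given above, it did not lie on a scored tandem repeat, but this was not particular to it. A region of GL000225.1 (chr14_GL000225v1_random:63520-65891), called in 5 lists, also had no scored period, and the mean GC content of its peaks was 63.8%. That region scored 124.6 in empty control replicate 1, where it ranked 7.

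The design asks which contig regions CRLM1-OE had in both replicates while every control list lacked them. There were 0 such regions among 267, where 0.521% of all merged regions of the series met this rule (82 regions, all on chromosomes). Both CRLM1-OE lists shared 35 contig regions, and all 35 also held a peak of empty control replicate 2. Without that list, 10 contig regions were shared by the CRLM1-OE replicates and missing from the 3 remaining control lists. The count of 0 therefore rested on this 1 library. These 10 were among 66 contig regions in 2 or more of the lists left. Those 66 were 38.6% of all contig regions left. On chromosomes 100 regions met the same rule, among 326 in 2 or more of the lists left. Those 326 were 2.49% of the 13112 chromosome regions left. The part that met the rule was thus smaller on contigs among shared regions, but larger among all regions left. Where overlap was required over 50% of both peaks, 3 contig regions met the rule, and no share of all regions is given at that setting. In the opposite direction, no contig region was in all 4 control lists and in neither CRLM1-OE list (0 of 267), where 0.00636% of all merged regions did so (1 region).

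CRLM1-OE replicate 1 and empty control replicate 2 shared 102 contig regions, which were 79.7% of the 128 regions of the first and 44.7% of the 228 of the second. Of these, 48 were in this pair of lists alone. The other lists shared a like or larger part of their own regions with empty control replicate 2, at 89.1% for CRLM1-OE replicate 2, 80.0% for empty control replicate 1, and 83.3 and 81.25% for the antisense control. The 2 CRLM1-OE lists shared 35 regions, or 27.3% of 128 and 76.1% of 46, and none was in that pair alone. On chromosomes 55 regions were in CRLM1-OE replicate 1 and empty control replicate 2 alone, against 82 in the 2 CRLM1-OE lists alone. The 2 empty control lists shared 20 regions (80.0% of 25 and 8.77% of 228), and the 2 antisense control lists shared 17 (40.5% of 42 and 53.1% of 32). In all, 184 of the 267 regions were in no list but CRLM1-OE replicate 1 or empty control replicate 2. These are also the lists with the most contig peaks and the narrow peaks on chromosomes.

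Contig peaks were wider and scored higher than chromosome peaks of the same list. Their median width was 673 against 506 bp and 919 against 747 bp in CRLM1-OE, 884 against 720 bp and 636 against 516 bp in the empty control, and 896 against 728 bp and 797 against 662 bp in the antisense control. The difference averaged 154 bp (SD 21.5, n = 6 lists, larger in 6 of 6, exact sign-flip permutation p = 0.0312, adjusted 0.0391). The 2 lists with narrow peaks on chromosomes were also the narrow ones on contigs, and the difference was similar in all 6.

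Median contig scores were 86.4 and 71.8 in CRLM1-OE, 63.1 and 93.2 in the empty control, and 70.3 and 67.3 in the antisense control, against 55.7 to 57.6 on chromosomes. The difference averaged 18.7 score units (SD 11.4, higher in 6 of 6, exact permutation p = 0.0312, adjusted 0.0391). No score lay under 50. Under 60 lay 15.7 to 39.3% of contig peaks and 59.3 to 68.5% of chromosome peaks, so fewer contig peaks sat near that floor. Leaving out any 1 list, the exact p of each of these differences was 0.0625, the smallest that 5 lists can give.

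**Figure D3:**
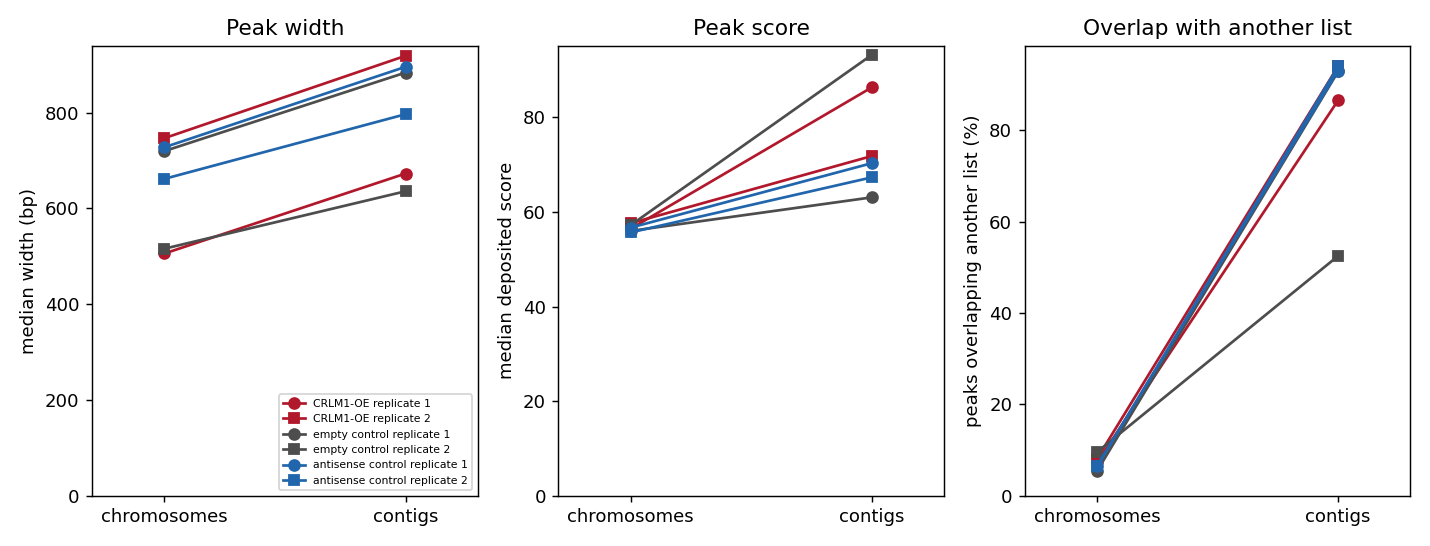
Median peak width in bp (left), median deposited score (middle) and percentage of peaks that overlap a peak of another list (right) for chromosome and contig peaks of each list; each line is 1 list, circles are replicate 1 and squares replicate 2. Every line rises from chromosomes to contigs, and empty control replicate 2 ends at 52.5% in the right panel while the other 5 end at 86.5% or more.

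The GC content of contig peaks was 44.1 to 47.03% per list. It was 2.39 percentage points above that of chromosome peaks on average (SD 1.83, higher in 6 of 6, exact permutation p = 0.0312, adjusted 0.0391), from 0.361 to 5.14 points. Among peaks at or above the median score of their list the difference was 1.70 points and was positive in 4 of 6 lists (exact permutation p = 0.188). Set against its own contig, the mean peak was 2.19 to 4.24 points richer in GC, and 63.0 to 72.7% of the peaks of a list lay above their contig's value.

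The third question was which sequences the contig peaks shared. A period was given to a peak when 40% or more of its bases matched the base 1 period before it. The periods were 2 to 4, 5, 42, 48 or 68 bases or that of alpha satellite, by which alone that satellite is named here. Spacings 1 base off 42, 48 and 68, and some close to that of alpha satellite, counted with them. Of the 545 contig peaks with sequence, 433 had such a period. The 5-base repeat underlay 203 peaks on 19 contigs (37.2%), the 68-base repeat 87 on 2 contigs (16.0%), alpha satellite 54 on 11 contigs (9.91%), the 48-base repeat 47 on 3 contigs (8.62%), repeats of 2 to 4 bases 36 on 7 contigs (6.61%) and the 42-base repeat 6 on 3 contigs. In the remaining 112 no period reached that limit. The 5-base class was set by its period alone, and its 3 peaks on KI270853.1 held no ATTCC or GGAAT.

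Windows of 700 bp along the unlocalized and unplaced contigs gave the background. There the 5-base repeat took 7.26% of windows, and its share under contig peaks was 5.13 times that. For the 68-base repeat the windows gave 1.35% (11.8-fold), for repeats of 2 to 4 bases 1.35% (4.90-fold) and for the 48-base repeat 4.73% (1.82-fold). The alpha satellite period took 13.6% of windows, and peaks held it at 0.727 of that share. Satellites were thus not represented alike under the peaks. The pattern by list was similar for the 5-base repeat, which underlay 33.8 and 46.0% of contig peaks in CRLM1-OE, 48.1 and 31.1% in the empty control, and 51.2 and 57.6% in the antisense control, above the 7.26% of windows in all 6 lists. These shares are a description, since peaks differ in width from the windows and peaks of different lists share regions.

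**Figure D4:**
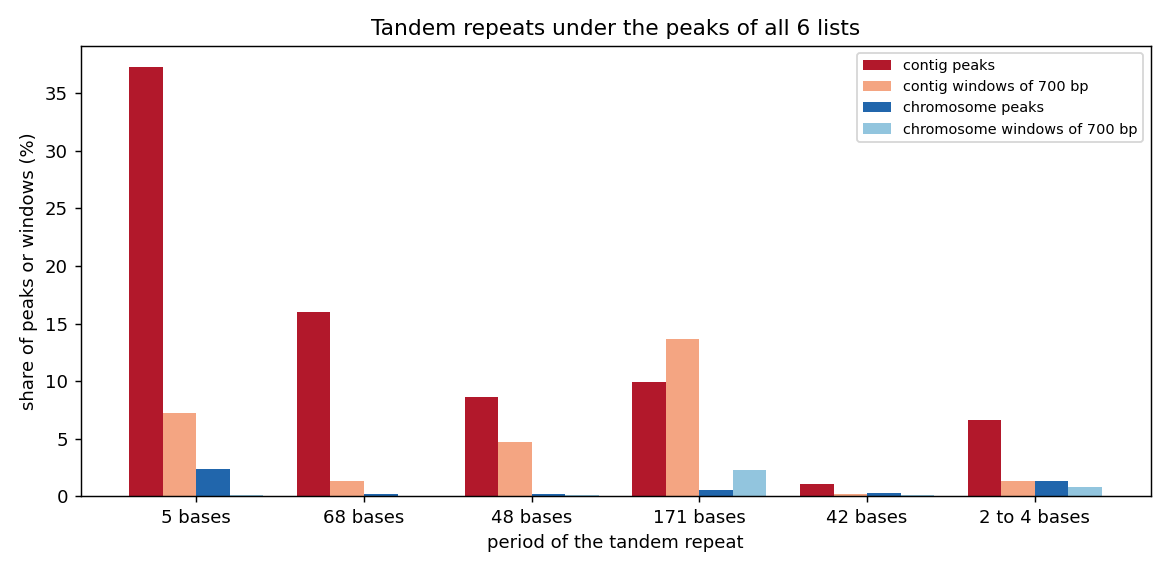
Share of peaks of all 6 lists, and of 700 bp windows of the same sequences, that carry a tandem repeat of each period, for contigs (red, light red) and chromosomes (blue, light blue). Contig peaks exceed contig windows for the 5-base (37.2 against 7.26%) and 68-base (16.0 against 1.35%) repeats and lie under them for alpha satellite, the bars with the longest period (9.91 against 13.6%).

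The same repeats were found under chromosome peaks. These lay on the 5-base repeat in 2.36% of cases, against 0.111% of chromosome windows. Of the 382 chromosome peaks on that repeat, 73.6% overlapped a peak of another list, close to the 79.8% of the 203 contig peaks on it. Chromosome peaks with no scored period overlapped in 5.07% (782 of 15420), while contig peaks with none overlapped in 67.9% (76 of 112). Of those 112, 57 lay on GL000225.1 and 27 on GL000205.2, which had 23.2 and 29.2% of their bases under merged peaks. The value therefore rests largely on these densely covered contigs. On the 68-base repeat the overlap was 75.9% on contigs and 68.6% on chromosomes (24 of 35), and on alpha satellite it was 27 of 54 contig peaks and 41.3% of chromosome peaks. The other repeats were further apart, with 83.0% of contig and 40.7% of chromosome peaks overlapping on the 48-base repeat, and 75.0 against 14.9% on repeats of 2 to 4 bases. On the 42-base repeat it was 4 of 6 contig peaks against 79.1% of chromosome peaks. Without empty control replicate 2 the contig values were 76.0% for the 5-base, 75.6% for the 68-base, 53.8% for the 48-base repeat and 36.0% for alpha satellite, and 52.5% with no period.

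Cytosine-rich motifs did not set the contig peaks apart, whereas paired ATTCC units were frequent in them. CCCT, a core of the cytosine-rich element that hnRNPK binds, was present on either strand in 92.8% of contig peaks, against 93.0% of contig windows, and in 95.7% of chromosome peaks, against 96.9% of chromosome windows. TCCC, which overlaps CCCT in a run such as TCCCT, was in 94.7% of contig peaks and 95.5% of contig windows. A pair of ATTCC units in a row, on either strand, was in 36.7% of contig peaks and 7.87% of contig windows, against 2.33 and 0.349% on chromosomes. The CENP-B box of alpha satellite was in 1.83% of contig peaks and 5.10% of contig windows. A pair of telomeric TTAGGG units in a row was in 0 contig peaks. CCCT and TCCC are met in most windows, so their presence says little of a single peak.

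Although the contigs are repeats by type, most peaks held no word of 150 bases with a further exact copy. Near-identical copies and copies missing from hg38 were not counted, so this does not show that reads match a single place. In 87.5% of contig peaks (477 of 545) no word of 150 bases had a further exact copy in hg38 outside the alternate sequences, against 99.3% of chromosome peaks. In 518 contig peaks none of the words was found on a chromosome. The read length was 151 bases, and how the authors treated reads with several equal matches is not given in the sources used here.

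Ribosomal DNA was met on KI270733.1 and GL000220.1. The GENCODE release 44 file used here covers chromosomes only, and the position of the 45S gene there was found by aligning RNA45SN2 of chromosome 21 (21:8205988-8219302, RefSeq). On KI270733.1 it matched bases 122273 to 135645 with 99.4% identity and, in part, bases 167355 to 179772. On GL000220.1 it matched 105424 to 118780 and, in part, 149396 to 161802. Between the copies lay spacers of 31709 and 30615 bp. All 31 peaks of these contigs (27 and 4) fell in the spacer downstream of the 45S gene, and 0 touched the gene itself or its 18S, 5.8S or 28S parts. They came from every list, with 8 and 4 peaks in CRLM1-OE, 2 and 13 in the empty control and 3 and 1 in the antisense control. The 45S matches took 13375 and 12428 of the 179772 bases of KI270733.1, and 13368 and 12418 of the 161802 of GL000220.1. The gene has near-identical copies, and how reads with several equal matches were treated is not given. The 0 therefore describes the calls and cannot be read as absence of binding.

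The spacer peaks recurred at a few distances. On KI270733.1 all 6 lists had a peak that began 382 to 551 bp past the 3′ end of the 45S gene, on the CT-rich stretch shown above. Its width was 402 to 626 bp, and it was the region in all 6 lists described above. A second peak, in every list but antisense control replicate 2, began 13233 to 13398 bp past that end. The other peaks of the spacer, the last of which began 17813 bp past the end, came from CRLM1-OE replicate 1, CRLM1-OE replicate 2 and empty control replicate 2 alone. On GL000220.1, 4 lists had 1 peak each, which began 1290 to 1943 bp past the 45S gene.

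The annotated ribosomal DNA of chromosome 21 was alike in having no call on the 45S gene and in the place of the first peak. There 16 peaks followed the 45S genes, 12 of them after RNA45SN2, and again none touched a 45S gene. After RNA45SN2, 5 lists had a peak that began 511 to 555 bp past the 3′ end, and 4 lists had one that began 14733 to 15083 bp past it, namely both CRLM1-OE lists, empty control replicate 2 and antisense control replicate 2. Near this distance KI270733.1 had peaks of CRLM1-OE replicate 1 and empty control replicate 2, which began 14714 and 14779 bp past the end. No peak of chromosome 21 began at the distance of the second KI270733.1 peak described above. Antisense control replicate 2 lacked the first peak, just past the 3′ end, on chromosome 21 but had it on KI270733.1. Which copies the reads came from cannot be told apart among such similar units.

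**Figure D5:**
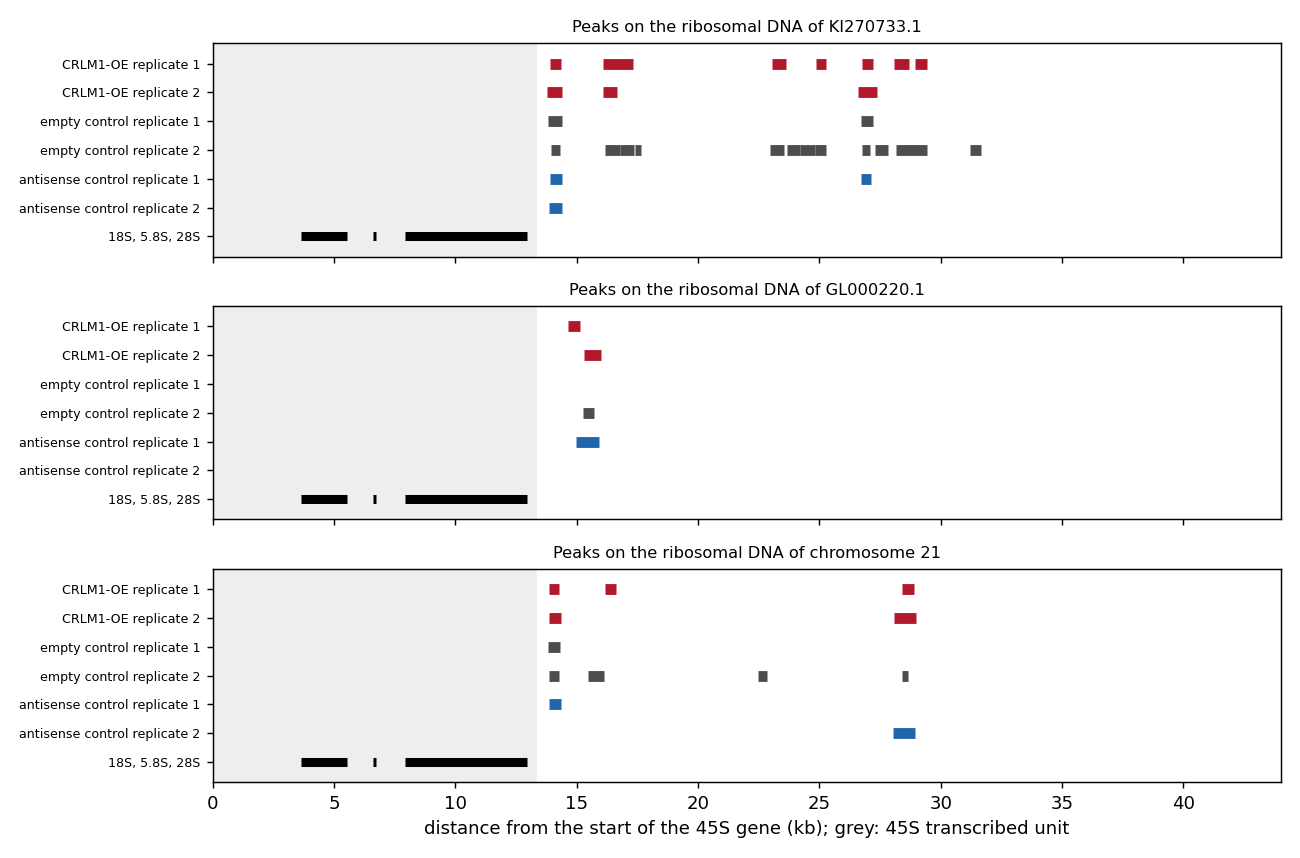
Peaks on ribosomal DNA by distance in kb from the start of the 45S gene on KI270733.1, GL000220.1 and chromosome 21 (copy RNA45SN2), with 1 row per list; grey marks the 45S transcribed unit and black its 18S, 5.8S and 28S parts. No bar lies in the grey area, and the first cluster just past the 45S end holds all 6 lists on KI270733.1 and 5 on chromosome 21.

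No contig region matched an annotated transcript. Of 263 regions with sequence, 0 aligned to a GENCODE 44 transcript over 200 bases or more at 97% identity or above, so no gene is named for them. The transcripts are spliced and come from chromosomes, so introns, promoters and genes found only on a contig could not match. Whether a peak touched such a gene was therefore not tested.

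Most of the 11 peaks on alternate sequences scored low and stood in a single list. Empty control replicate 1 had none, CRLM1-OE held 4 and 1, empty control replicate 2 held 2 and the antisense control 2 and 2. Only on KI270853.1, an alternate of chromosome 16, did peaks of different lists overlap. These scored 52.3 in CRLM1-OE replicate 1, 83.1 in antisense control replicate 1 and 160 in antisense control replicate 2. Their mean GC content was 66.2%, and they had a 5-base period without ATTCC or GGAAT. The patch KN196487.1 had 2 peaks in CRLM1-OE replicate 1, 1 in empty control replicate 1 and 4 in empty control replicate 2. Its best peak scored 777 and ranked 6 in empty control replicate 2.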

How the data were processed

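Chromatin immunoprecipitation of hnRNPK in HCT116 cells gave 6 deposited peak lists, each called per library against its input. Per the study's methods, adapters were trimmed with cutadapt, reads were aligned to GRCh38 with Bowtie2, and peaks were called with MACS2. The deposited score of a peak has no header. It never fell under 50, which would be a p of 1e-05 if scores follow the log scale of older MACS versions, whereas the methods state a q-value cutoff. Which settings made the lists is not known, and scores served to rank and compare peaks within a list, and those of different lists are set side by side without a comparison. No read depth accompanies the lists.

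Contig names were matched to the hg38 sequences by their accession part. The patch KN196487.1 was not matched and has no length or sequence here. Peaks were merged at an overlap of 1 bp. Densities used determined bases. Groups were compared by the exact two-sided permutation test over lists, and contig with chromosome peaks of the same list by the exact sign-flip test, with Benjamini-Hochberg adjustment over 5 measures. Tests were checked on simulated data. The contigs and regions named were those in the most lists, then by mean rank or peak number, and further ones were chosen after their values were seen. Members, lists and tests were chosen with earlier results of these data known. Python 3.11.15, pandas 2.3.3, scipy 1.17.1, pysam 0.24.0, samtools 1.23.1 and blastn 2.17.0 were used. Alternatives were stronger peaks, equal list lengths, no alternates, mitochondrial peaks counted in, whole sequence length, mean width, a 50% reciprocal overlap, a replicate block and leaving out each list.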

Additional observations from a re-analysis of the deposited data

How the results depend on the processing

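Of 56 values under other settings, 50 kept their direction and their side of the threshold. With the 1000 highest-scoring peaks of each list, the log2 difference in the number of contig peaks between CRLM1-OE and the empty control turned to -0.0542, and the difference in share between CRLM1-OE and the 4 control lists turned to 0.50 percentage points. The density ratio of contigs to chromosomes turned to a log2 value of 0.0813 with stronger peaks and to 2.70 without alternates and the patch, whose 100.7 Mb leave the denominator. The GC difference fell to 1.70 points with stronger peaks. The number of regions that both CRLM1-OE replicates had and the controls lacked moved from 0 to 3 at a reciprocal overlap of 50% and to 10 without empty control replicate 2, an alternative chosen after seeing the data. The causes were not tested beyond this.

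Leaving out each list in turn, the log2 difference in number ranged from -1.45 to 1.66 against the empty control (under 0 without CRLM1-OE replicate 1, -0.72, or empty control replicate 1), from 0.41 to 2.05 against the antisense control and from -0.16 to 1.49 against the 4 control lists. For the antisense against the empty control it ranged from -2.68 to 0.43, above 0 without empty control replicate 2. The share difference ranged from -5.98 to 0.813, from -0.107 to 1.81, from -1.82 to 0.837 and, for the antisense against the empty control, from -6.83 to -0.0367 percentage points. Against the 4 control lists, leaving out CRLM1-OE replicate 2 gave 0.0895 points and leaving out empty control replicate 2 gave 0.837. Contigs against chromosomes, the density ratio ranged from -0.98 to -0.46 (log2), width from 151 to 161 bp, score from 15.3 to 21.1, overlap from 71.6 to 76.7 points and GC from 1.84 to 2.80 points. With 5 lists no p can fall under 0.0625.

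With the replicate number as a block, the number of contig peaks in CRLM1-OE against the antisense control kept its log2 difference of 1.23 (exact permutation p = 0.5, the smallest possible within numbers). The block changed no call. The labels do not say that a number marks a shared culture day, so the lists share only a number.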

Other observations

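The mitochondrial chromosome, which the members leave out, held 2 peaks, both from its first base. CRLM1-OE replicate 1 had one of 1111 bp with a score of 337, and antisense control replicate 1 had one of 1468 bp with a score of 66.9.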
